A study of Rattus norvegicus with 12 samples.

Results

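The circadian clock genes Arntl, Npas2, Per1, Per2, Per3, Cry1, Nr1d1, Nr1d2, Dbp and Tef were examined in the livers of rats with free access to ethanol and of rats with water only. The genes were found by name in the table of RPKM values (reads per length of transcript, in kilobases, and number of mapped reads, in megareads), in which 9 of the 10 names matched 22 of 34391 rows. Each row is 1 annotated transcript, 18 of the 22 were above 0 in at least 1 liver, and the row of a gene with the highest mean RPKM over the 12 livers was its main row. Nr1d2 is not analysed here. All 12 animals were females of the inbred alcohol-preferring strain iP10a. The 6 EtOH animals chose for 23 weeks between water and bottles with 10, 20 and 30% ethanol, and the 6 controls had water alone, with food freely available to both. Animals were 38 weeks old when the livers were taken, except EtOH 6, which was 39 weeks old. Caloric intake was not matched between the groups by pair-feeding, and blood alcohol was undetectable at sacrifice. Every animal gave 1 liver and 1 poly(A) RNA library, and all come from a single inbred strain. Animals were kept on 12 hours of light and 12 hours of darkness. The sources used here do not give the hour of the day at which each liver was taken.

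The hepatic clock is a loop of transcription and repression that repeats daily. ARNTL (BMAL1) pairs with CLOCK or NPAS2 and binds E-boxes in the promoters of the Per, Cry, Nr1d and Dbp genes. PER and CRY proteins return to block that pair, and NR1D1 represses Arntl and Npas2 through ROR elements, so in a rhythmic liver the activators peak when Nr1d1 and Dbp are low. DBP and TEF are bZIP factors that carry the rhythm to liver metabolism through D-boxes.

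Promoter sequences from RefSeq (build GRCr8, 250 bases before to 50 after the start of a gene) are shown for the 3 genes that were called in their main row and for Arntl, the activator whose row values were least stable. Windows were found for 9 of the 10 names, Arntl under its current symbol Bmal1, and 4 genes, those shown, held at least 1 of the motifs searched on both strands. The windows of Npas2, Per1, Per3, Nr1d2 and Dbp held none of them, and Cry1 had no window. For those genes the windows thus do not show the sites named above. Capitals mark the matches. Arntl holds the ROR element TAGGTCA 16 bases before its start (chr1:176766078-176766377, plus strand):
Arntl: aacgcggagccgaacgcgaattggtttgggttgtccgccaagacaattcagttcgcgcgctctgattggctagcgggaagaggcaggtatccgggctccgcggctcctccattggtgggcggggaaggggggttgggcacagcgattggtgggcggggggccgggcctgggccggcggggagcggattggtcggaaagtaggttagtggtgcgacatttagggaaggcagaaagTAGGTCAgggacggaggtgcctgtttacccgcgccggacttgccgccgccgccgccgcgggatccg
Per2 holds the E-prime box CACGTT 62 bases and the D-box TTATGTAA 192 bases before its start (chr9:99496944-99497243, minus strand):
Per2: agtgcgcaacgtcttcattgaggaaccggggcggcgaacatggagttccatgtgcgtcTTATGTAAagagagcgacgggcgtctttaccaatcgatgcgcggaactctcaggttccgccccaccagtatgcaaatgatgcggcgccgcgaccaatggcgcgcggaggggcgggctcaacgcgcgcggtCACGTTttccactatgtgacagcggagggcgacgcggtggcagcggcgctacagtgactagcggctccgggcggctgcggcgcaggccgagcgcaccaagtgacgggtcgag
In 1 of the 2 windows of Nr1d1 the E-box CACGTG lies 191 bases before the start (chr10:84229405-84229704, minus strand):
Nr1d1: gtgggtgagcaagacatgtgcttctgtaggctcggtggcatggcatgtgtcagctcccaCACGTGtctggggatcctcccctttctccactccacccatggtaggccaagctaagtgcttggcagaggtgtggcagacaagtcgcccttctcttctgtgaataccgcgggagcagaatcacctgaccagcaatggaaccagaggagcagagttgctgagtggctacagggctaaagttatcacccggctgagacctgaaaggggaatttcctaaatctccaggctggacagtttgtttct
Tef holds the E-box CACGTG 198 bases before its start (chr7:115206577-115206876, plus strand):
Tef: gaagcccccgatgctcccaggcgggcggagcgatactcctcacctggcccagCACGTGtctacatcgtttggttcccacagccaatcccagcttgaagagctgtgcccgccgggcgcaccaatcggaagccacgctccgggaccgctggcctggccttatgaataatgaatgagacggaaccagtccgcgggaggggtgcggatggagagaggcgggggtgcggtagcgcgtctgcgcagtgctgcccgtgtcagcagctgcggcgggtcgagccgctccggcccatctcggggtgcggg
The other Nr1d1 window (chr10:84231763-84232062, minus strand) holds AACGTG, the E-prime box on the opposite strand, 174 bases before the start. Of all 33469 promoter windows, 6.42% hold CACGTG, 4.83% CACGTT, 0.893% TTATGTAA and 2.63% TAGGTCA. The D-box form TTACGTAA (0.12% of windows) and the cAMP element TGACGTCA (1.83%) were also searched and were in no window of these genes. None of the motifs overlapped another.

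Between 2610238 and 4318141 reads per control liver and between 3945593 and 6030028 per EtOH liver could be recovered from the values, so the EtOH libraries were deeper (two-sided exact permutation test, p = 0.0108). Hepatocyte markers summed to 80208 to 106950 RPKM in the controls and 88048 to 113494 RPKM in the EtOH livers (exact permutation p = 0.123). Of the 5 matched, 1, Cps1, was called higher in the EtOH livers. Quantile normalization gave Alb and the main row of Tf equal means in both groups, so the fit could not call them. Markers of Kupffer cells and macrophages were higher in the EtOH livers in 3 of 5 main rows (Clec4f, Cd163 and Vsig4), and summed to 88.5 to 133 RPKM in the controls and 122 to 149 in the EtOH livers (two-sided exact permutation test, p = 0.013). Lymphocyte markers summed to 4.23 to 6.76 against 6.06 to 8.03 RPKM (p = 0.00866), endothelial markers to 24.1 to 31.1 against 27.8 to 40.0 RPKM (p = 0.013) and stellate cell markers to 7.05 to 9.94 against 8.15 to 13.2 RPKM (p = 0.0368, all by the same exact test). Cholangiocyte markers summed to 4.37 to 8.27 and 3.90 to 7.87 RPKM (exact permutation p = 0.855). In main rows 1 of 6 lymphocyte markers, Cd79a, was called, and 0 of 3 endothelial, 0 of 6 stellate cell and 0 of 4 cholangiocyte markers. Of these last 3 lists, 2, 3 and 0 markers had an unadjusted p below 0.05. These were Lyve1 (log2 fold change 0.33) and Tek (0.50), and the stellate cell markers Col1a1 (0.62), Reln (0.34) and Ngfr, which was lower (-0.26). With the rows of a gene summed, as in these sums, 1 of 3 endothelial markers (Tek, limma adjusted p = 0.0358) and 4 of 5 Kupffer cell and macrophage markers (Csf1r added, limma adjusted p = 0.0236) were called higher, and the other counts were the same. Over all 21718 rows tested, 2.42% were called and 3364 had an unadjusted p below 0.05. With rows summed, 6.40% of all genes were called. None of the matched markers was at 0 in all livers, and the part of these cells in the results below was not tested. In whole liver, more cells of a type and more RNA per cell cannot be told apart.

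Of the 9 clock genes, the main rows of Nr1d1 and Tef rose and that of Per2 fell in the EtOH livers. The activators Arntl and Npas2, Per1 and Cry1 were not called, and Dbp and Per3 had higher group means without passing the threshold. A call means an adjusted p below 0.05 by limma on quantile-normalized log2(RPKM + 0.5), with Benjamini-Hochberg adjustment over all 21718 rows above 0. The 3 calls among 9 main rows stand beside 2.42% of all rows called, 1.13% higher and 1.29% lower. Many of those rows have low values. When only the 11086 rows with a mean RPKM of 1 or more were fitted, 7.76% were called, 3.79% higher and 3.97% lower. The main row of Per3 did not pass that filter, and 3 clock genes (Nr1d1, Tef and Dbp) were called higher and 1 lower. The median log2 fold change of the 9 main rows was 0.27, and that of all rows tested was 0.00. Without normalization between livers the calls over all rows split into 126 higher and 648 lower. Rows at a mean RPKM of 1 or more had a median log2 difference of -0.08 before and 0.008 after quantile normalization. By an unmoderated test on square-root values, the kind the paper describes, 0 of the 9 main rows were called, beside 1.48% of all rows.

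For 3 of the genes, Arntl, Per1 and Per3, the reads were divided over the rows very differently from liver to liver. The 5 rows of Arntl are listed at the same positions (chromosome 1, 171062181 to 171162422, in the table's own build, which the sources used here do not give). The main row held 92.0% of the reads of Arntl in EtOH 4 but 0.855% in Control 4, where a single other row held 99.1%. In Control 3, EtOH 1 and EtOH 2 the reads were spread over all 5 rows, with 17.7%, 18.4% and 17.6% in the main row. For Per1, the main row held 100% of the reads in EtOH 4 and 10.5% in EtOH 1. The main row of Per3 held 100% of its reads in 5 livers and 0% in Control 5. Dbp and Tef were little affected, with at least 93.0% and 92.6% of reads in the main row of every liver, and Npas2, Per2, Cry1 and Nr1d1 each had a single row above 0. The RPKM of all rows of a gene were therefore also summed in each liver before the same fit, an alternative chosen after the values were seen. Over the 15270 genes tested in this way, 6.40% were called, 3.16% higher and 3.24% lower.

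**Figure D1:**
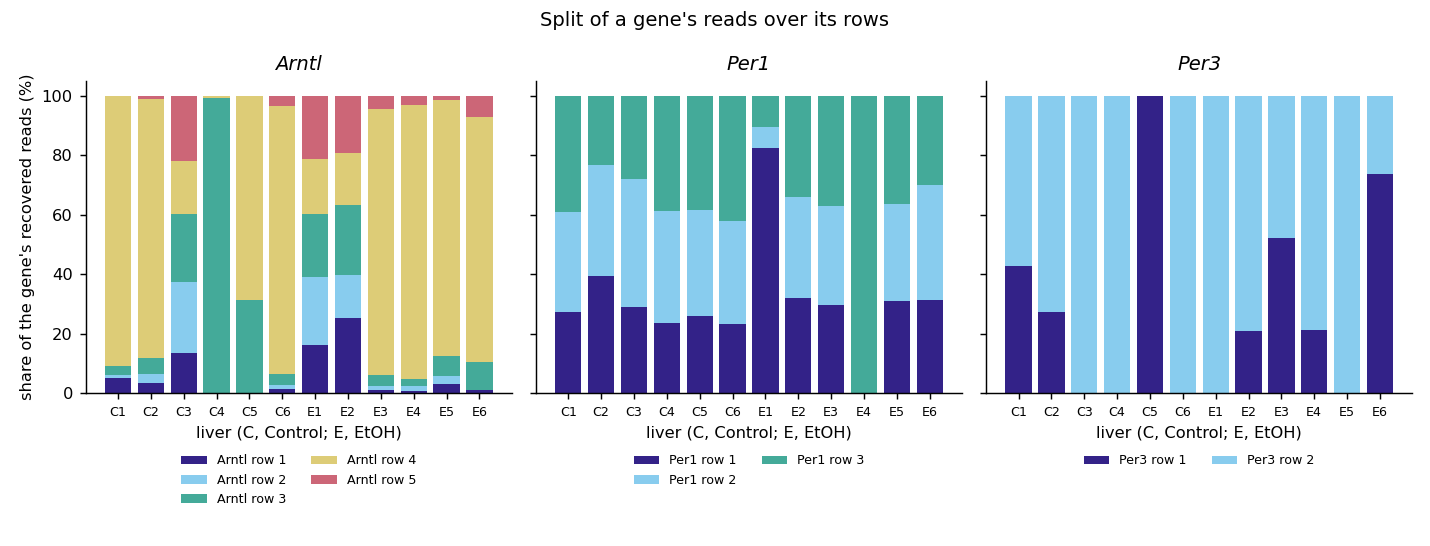
Share of each gene's recovered reads (%) in each of its rows for Arntl, Per1 and Per3, with 1 bar per liver (C, control; E, EtOH). The main rows, Arntl row 4, Per1 row 3 and Per3 row 2, held between 0.855 and 92.0%, 10.5 and 100%, and 0 and 100% of the reads.

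With rows summed, Nr1d1, Tef and Per3 rose and Per2 fell. The 4 calls among 9 genes are read against the 6.40% of all genes. When only the 9747 genes with a mean RPKM of 1 or more were fitted, 12.8% were called. The median log2 fold change of the 9 was 0.40, beside 0.003 over all genes tested. In 1 of the 9 genes with rows summed, Per3, the groups did not overlap, beside 4.59% of all genes (0.969% with the EtOH livers higher and 3.62% with them lower), and in main rows this was so in 0 of 9, beside 3.1% of all rows (0.677% and 2.43%).

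**Figure D2:**
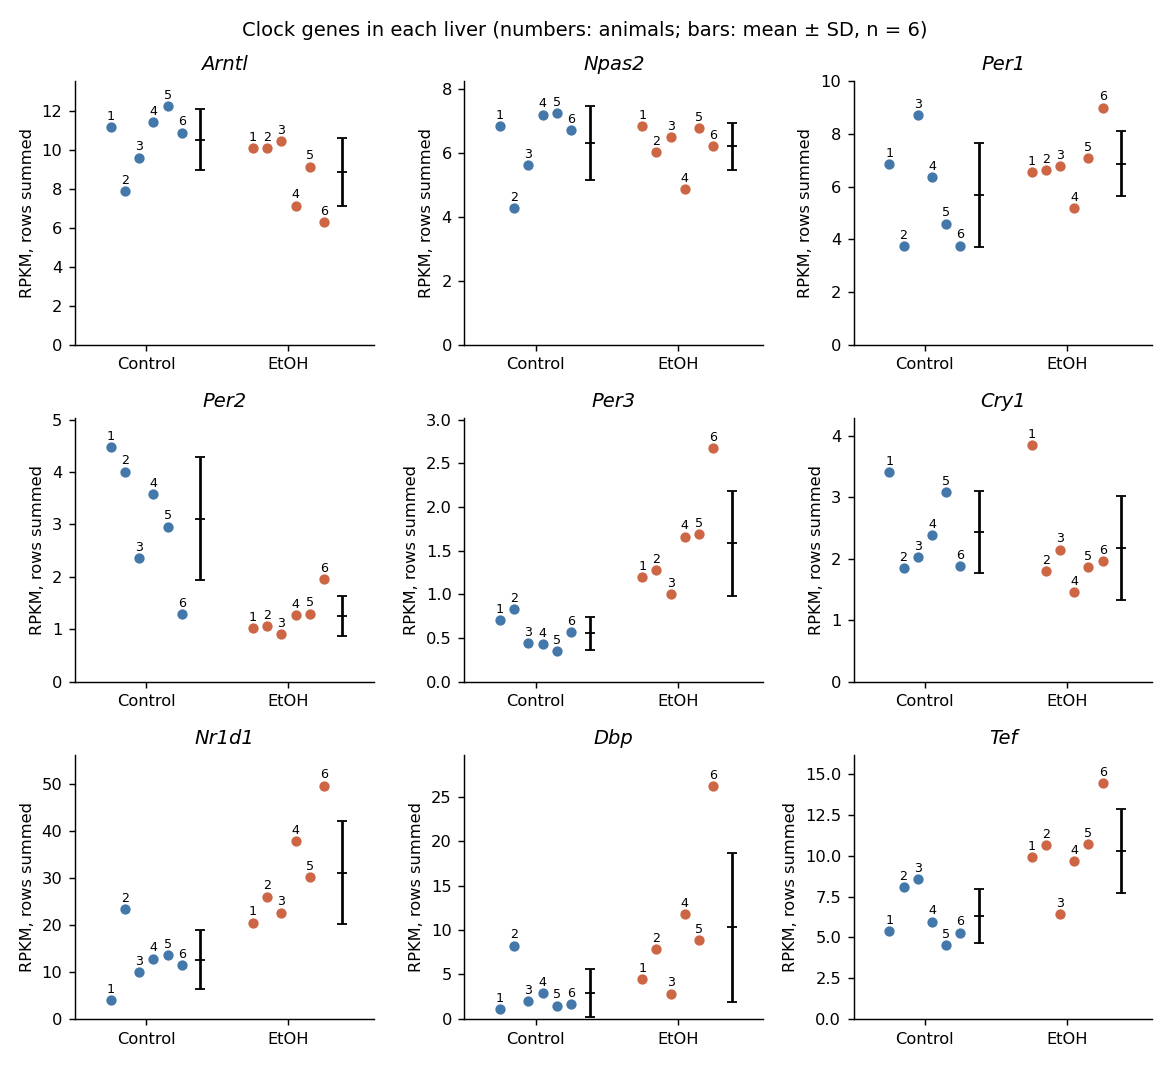
RPKM of each clock gene in each of the 12 livers, rows of a gene summed, with the animal number above each point and the mean ± SD of 6 livers at the right of each group. The groups are apart in Per3 alone, and EtOH 6 is the highest EtOH liver for Per1, Per2, Per3, Nr1d1, Dbp and Tef and the lowest for Arntl.

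Among the activators, Arntl encodes the partner that both CLOCK and NPAS2 need. In its main row it ranged from 0.0970 over a median of 7.63 to 10.1 RPKM in the controls and from 1.75 over 5.86 to 9.34 RPKM in the EtOH livers. These levels follow the division of reads described above, with Control 4 at the bottom. With rows summed, Arntl lay between 7.90 and 12.2 RPKM in the controls (median 11.02) and between 6.30 and 10.5 RPKM in the EtOH livers (median 9.62). The lowest livers were EtOH 6 at 6.30, EtOH 4 at 7.14 and Control 2 at 7.90 RPKM, 4 controls lay above every EtOH liver, and the groups overlapped. Neither version was called. The log2 fold change was 0.19 (standard error, SE, 0.70, 95% interval -1.34 to 1.71, limma adjusted p = 0.923) in the main row. With rows summed it was -0.13 (standard error 0.15, interval -0.45 to 0.19, limma adjusted p = 0.651), so the sign changed and the interval became narrower. The 4 further rows of Arntl were not called either, with log2 fold changes between -0.70 and 0.65.

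Npas2, which can take the place of CLOCK, had 1 row (chromosome 9, 38255362 to 38434352). It ranged from 4.26 to 7.24 RPKM in the controls (median 6.78) and from 4.87 to 6.84 RPKM in the EtOH livers (median 6.35). Control 2 was again the lowest control and EtOH 4 the lowest EtOH liver. The log2 fold change was 0.09 (standard error 0.13, interval -0.19 to 0.37, limma adjusted p = 0.776), and its sign turned without normalization between livers (-0.01).

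Nr1d1 encodes REV-ERB alpha, the heme-binding nuclear receptor that represses Arntl, and was the most abundant of the clock genes in both groups (chromosome 10, 87541246 to 87547976). Its RPKM ranged from 4.04 to 23.3 in the controls (median 12.2) and from 20.5 to 49.6 in the EtOH livers (median 28.1). Control 2, at 23.3 RPKM, lay among the EtOH livers, and the other 5 controls lay below all of them. Nr1d1 rose by a log2 fold change of 1.51 (with a standard error of 0.33 and a limma adjusted p of 0.0358, 0.0175 with rows summed), or 2.85-fold on the log2(RPKM + 0.5) scale. The group means were 12.5 ± 6.26 and 31.1 ± 10.9 RPKM (n = 6 each, SD), resting on 619 recovered reads over the control and 2038 over the EtOH livers. The call over single rows was lost without any of Controls 3 to 5 or EtOH 2 to 6 (adjusted p up to 0.0756). In the fit with rows summed it was kept without any 1 liver (adjusted p up to 0.0384). Nr1d1 has the same RPKM in both fits, which differ in the other features fitted and adjusted over, so the second is no separate check.

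The Per genes, whose proteins carry the repression of the activator pair, differed in direction. Per2 fell, from 1.28 to 4.47 RPKM in the controls (median 3.27) to 0.907 to 1.96 RPKM in the EtOH livers (median 1.17). Control 6, at 1.28 RPKM, was the control within the EtOH range, and the other 5 lay between 2.36 and 4.47, with EtOH 6 the highest EtOH liver. The log2 fold change was -0.98 (with a standard error of 0.23 and a limma adjusted p of 0.0491) in the row and -0.996 (SE 0.22, limma adjusted p = 0.0208) with rows summed, and group means were 3.11 ± 1.17 and 1.26 ± 0.374 RPKM (n = 6 each, SD). Recovered reads of Per2 were also fewer in the deeper EtOH libraries, 221 against 387 (chromosome 9, 90645342 to 90687509). The call over single rows lay next to the threshold. It was lost without any of Controls 1 to 5 or EtOH 1 to 5 (adjusted p up to 0.106). In the fit with rows summed it was kept without any 1 liver (up to 0.0472). The RPKM of Per2 are the same in both fits, so here too only the other features differ.

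Per3 went the other way. With both rows summed, its RPKM ranged from 0.348 to 0.832 in the controls (median 0.504) and from 1.001 to 2.68 in the EtOH livers (median 1.47). Every EtOH liver lay above every control. The log2 fold change was 0.91 (with a standard error of 0.18 and a limma adjusted p of 0.0145), and group means were 0.554 ± 0.184 and 1.58 ± 0.599 RPKM (n = 6 each, SD). Without any 1 liver the adjusted p stayed at or below 0.0327. Per3 was the least abundant control transcript of the 9, with 42 recovered reads in all controls together and 164 in all EtOH livers. The main row alone, listed at 0 in Control 5, overlapped between the groups and was not called (log2 fold change 0.75 with a standard error of 0.25 and a limma adjusted p of 0.151).

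Per1, which also answers quickly to glucocorticoids and cAMP, lay between 3.75 and 8.73 RPKM in the controls (median 5.48) and between 5.17 and 9.001 RPKM in the EtOH livers (median 6.71), rows summed. Control 3 was as high as the upper EtOH livers, and the groups overlapped. Its log2 fold change was 0.40 (standard error 0.18, interval 0.00 to 0.79, limma adjusted p = 0.227) with rows summed and 0.27 (SE 0.35, limma adjusted p = 0.73) in the main row. Neither passed the threshold. Cry1, the other repressor, ranged from 1.84 to 3.41 RPKM in the controls and from 1.46 to 3.84 RPKM in the EtOH livers, with EtOH 1 highest (log2 fold change -0.14, standard error 0.20, interval -0.57 to 0.29, limma adjusted p = 0.768).

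Of the PAR bZIP output factors, Tef rose and Dbp did not pass the threshold. The main row of Tef ranged from 4.27 to 6.35 RPKM in the controls (median 5.51) and from 6.28 to 13.5 RPKM in the EtOH livers (median 8.70). EtOH 3, at 6.28 RPKM, lay within the control range, and the other 5 EtOH livers were above all controls. The log2 fold change was 0.76 (with a standard error of 0.15 and a limma adjusted p of 0.023) in the main row and 0.78 (SE 0.18, limma adjusted p = 0.0239) with rows summed, a rise of 1.69-fold and 1.72-fold. Group means of the main row were 5.45 ± 0.811 and 9.03 ± 2.39 RPKM (n = 6 each, SD). Without EtOH 2 the adjusted p was 0.0523 in the main row and 0.0547 with rows summed, and the call held in both without any other liver.

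Dbp varied widely from liver to liver. Its main row (chromosome 1, 96173573 to 96178484) went from 1.06 to 6.33 RPKM in the controls (median 1.85) and from 2.85 to 26.1 RPKM in the EtOH livers (median 8.36). EtOH 6 stood far above the rest at 26.1 RPKM, the next being EtOH 4 at 9.67, and Control 2 stood above the other controls, which lay between 1.06 and 2.86 RPKM. The log2 fold change of Dbp was the largest of the 9 genes, at 1.69 (standard error 0.47, interval 0.68 to 2.71), but the adjusted p was 0.0833 (limma). With rows summed it was 1.67 (SE 0.49, limma adjusted p = 0.0612), and it passed without Control 2 or EtOH 3 (adjusted p down to 0.0319). Dbp also passed, in its main row and with rows summed, when only features with a mean RPKM of 1 or more were fitted. Recovered reads numbered 95 over the control and 476 over the EtOH livers in the main row.

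**Figure D3:**
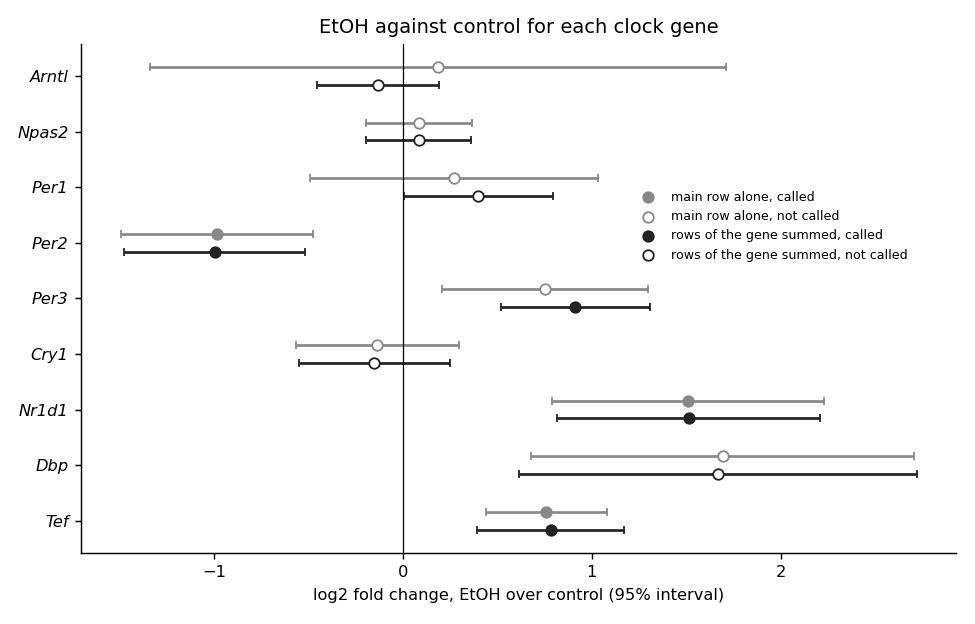
Log2 fold change of EtOH over control for the 9 clock genes with 95% intervals from limma, for the main row alone (grey) and with rows of a gene summed (black), filled where called. Summing the rows narrowed the interval of Arntl from -1.34 to 1.71 to -0.45 to 0.19 and moved Per3 past the threshold.

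The genes were also ordered by RPKM, which is per length, with rows summed. In the controls Nr1d1 (12.5 RPKM) was followed by Arntl (10.5), Npas2 (6.31), Tef (6.30), Per1 (5.68), Per2 (3.11), Dbp (2.89), Cry1 (2.44) and Per3 (0.554). In the EtOH livers Nr1d1 (31.1) was followed by Dbp and Tef (10.3 each), Arntl (8.88), Per1 (6.87), Npas2 (6.20), Cry1 (2.18), Per3 (1.58) and Per2 (1.26). The intervals of mean ± 1 SD of neighbours in these orders overlapped, except those of Arntl and Npas2, and Cry1 and Per3, in the controls, and Nr1d1 and Dbp, and Npas2 and Cry1, in the EtOH livers. Per2 was the sixth in the controls and the last in the EtOH livers. Dbp, which was not called, was the seventh in the controls, and its second place in the EtOH livers rested on EtOH 6. Without that liver its EtOH mean was 7.16 RPKM, and by medians Dbp (8.36 RPKM) came after Nr1d1 (28.1), Tef (10.3) and Arntl (9.62).

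Arntl and Npas2 were then set against Per1, Per2, Per3, Nr1d1 and Dbp within each liver, as the difference of their mean log2(RPKM + 0.5). With rows summed this difference was 1.21 ± 0.54 in the controls and 0.43 ± 0.62 in the EtOH livers (n = 6 each, SD), a change of -0.78. The activators contributed -0.13 and the opposing genes 0.65 to it. By liver, the controls were at 1.55, 0.19, 1.10, 1.22, 1.57 and 1.63 (animals 1 to 6) and the EtOH livers at 0.96, 0.64, 1.09, 0.02, 0.45 and -0.56. EtOH 4 and EtOH 6 lay below every control, Control 2 lay among the lower EtOH livers, and the groups overlapped. Main rows alone gave -0.54, with Control 4, the liver in which the main row of Arntl was nearly empty, as the lowest of the 12. No test was made of this score, since the genes in it were chosen. Each of the 10 single ratios overlapped between the groups, and 8 had a lower mean in the EtOH livers. The ratios of Arntl and Npas2 to Per2 had a higher one, by 0.74 and 0.98 on the log2 scale. The ratio of Arntl to Per3 was nearest to separation, with 5 EtOH livers below the lowest control.

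**Figure D4:**
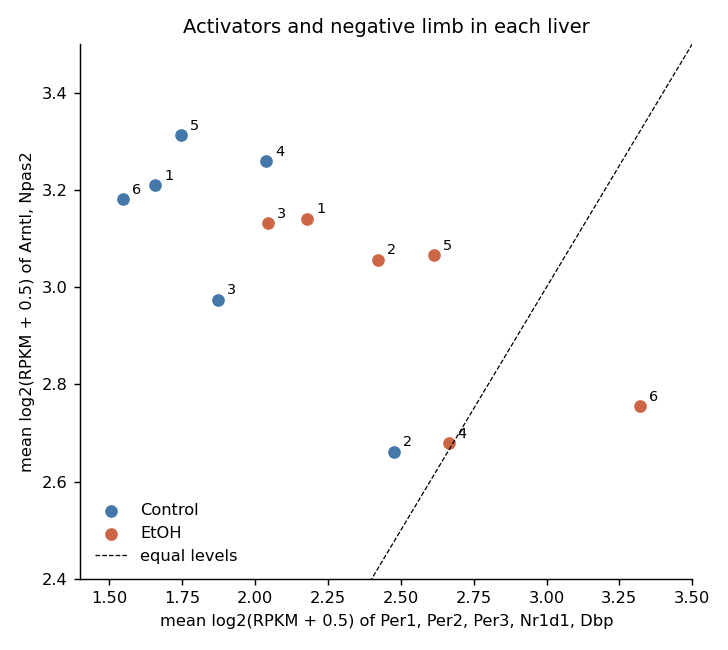
Mean log2(RPKM + 0.5) of Arntl and Npas2 against that of Per1, Per2, Per3, Nr1d1 and Dbp in each liver, rows summed, with the animal number beside each point and a dashed line where both are equal. EtOH 6 lies right of the line at a difference of -0.56, EtOH 4 on it at 0.02, and Control 2 at 0.19 is apart from the other controls, which lie between 1.10 and 1.63.

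Within each group, levels of the 2 activators were related to those of the same 5 genes over the 6 livers, 20 relations in all. In main rows 0 of 20 passed an adjusted p of 0.05 (two-sided exact permutation of Pearson's r, smallest p = 0.0667). With rows summed, 4 of 20 passed, all between Arntl and another gene in the EtOH livers. Arntl was lower where Nr1d1 was higher (Pearson's r = -0.961, exact permutation p = 0.00556, adjusted p = 0.037, Spearman's rho = -0.829, p = 0.0583). Its relation to Dbp had r = -0.904 (exact permutation p = 0.00278, adjusted p = 0.037, rho = -0.943, p = 0.0167), and that to Per3 r = -0.91 (p = 0.00556, adjusted p = 0.037, rho = -0.886, p = 0.0333). For Per2 it was -0.901 (exact permutation p = 0.00833, adjusted p = 0.0417, rho = -0.886, p = 0.0333). None of the rank correlations passed adjustment (adjusted p of 0.222 or more by exact permutation). Leaving out the 2 livers farthest from the median of Arntl, r over the other 4 was -0.801 for Nr1d1, -0.772 for Dbp, -0.976 for Per3 and -0.979 for Per2. In the controls the same relations had r of -0.489, -0.821, -0.681 and -0.159 and none passed, and the difference between the groups was not tested. Relations of Npas2 did not pass in either group, with r with rows summed between -0.821 and 0.596.

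Rows with a pattern most like that of Arntl and Dbp over the 12 livers were picked from 11071 other rows with a mean RPKM of at least 1, as a description. For the main row of Arntl the highest Pearson correlations were with a row of ARHGB_RAT (0.907), Oma1 (0.893) and Dtymk (0.888). The lowest were with LOC100360843 (-0.91), another row of ARHGB_RAT (-0.859) and Cnih4 (-0.844), so rows of the same gene stood at both ends. With rows summed, Brpf1 (0.855), Usp48 (0.815) and Cdc42ep3 (0.813) were highest and Ptger3 (-0.904), Lyplal1 (-0.9) and Gng10 (-0.855) lowest. Levels of Dbp went with Hsd17b2 (0.909), a 17-beta-hydroxysteroid dehydrogenase, with Ak3 (0.907) and with Rbm16 (0.906), and against Agap3 (-0.919), Zfand2a (-0.876) and Mterfd1 (-0.869). Hsd17b2 and Ak3 were also the highest for Dbp with rows summed (0.919 and 0.889). These correlations are over both groups, whose mean RPKM of Dbp differed. After the mean of each group was subtracted, the main row of Dbp had correlations of 0.893 with Hsd17b2, 0.798 with Ak3, 0.808 with Rbm16, -0.826 with Agap3, -0.725 with Zfand2a and -0.753 with Mterfd1.

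Among other genes of the clock, 0 of 10 matched main rows were called, beside 2.42% of all rows. An unadjusted p below 0.05 was found for 1 of them, beside 3364 of all 21718 rows. Clock, the usual partner of ARNTL, had means of 4.43 ± 2.09 and 5.34 ± 0.552 RPKM, and Cry2 4.72 ± 0.787 and 4.94 ± 0.855 RPKM (n = 6 each, SD, rows summed). The list had 0 calls with rows summed as well, and its median log2 fold change was 0.14 in main rows and 0.13 with rows summed.

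Of genes known as outputs of the hepatic clock, 1 of 8 tested was called, beside 2.42% of all rows. Where only rows with a mean RPKM of 1 or more were fitted, the share of all rows was 7.76%. Pdk4, a kinase that inhibits pyruvate dehydrogenase, rose from 21.7 ± 6.94 to 35.9 ± 6.82 RPKM (n = 6 each, SD, log2 fold change 0.89 with a standard error of 0.21 and a limma adjusted p of 0.0478). Its call held without Control 6 or EtOH 6 and was lost without any of the other livers (adjusted p up to 0.104). The median of the list was -0.04. The list holds genes with different hours of peak expression.

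Per1 and other clock genes also respond to glucocorticoids and to cAMP, so lists of such targets were read in the same fit. Of 10 glucocorticoid targets, 1 was called, beside 2.42% of all rows (7.76% with the filter at a mean RPKM of 1). This was Klf9, a Kruppel-like factor that is rhythmic in many tissues. It ranged from 6.03 to 12.9 RPKM in the controls (median 10.2) and from 18.5 to 26.1 RPKM in the EtOH livers (median 20.2). No EtOH liver lay within the control range (log2 fold change 1.27 with a standard error of 0.17 and a limma adjusted p of 0.00344). Of the 10, 8 had a log2 fold change above 0, and the median was 0.16. An unadjusted p below 0.05 was found for 2, Klf9 and Angptl4, beside 3364 of all 21718 rows. Angptl4, which encodes an inhibitor of lipoprotein lipase, had a log2 fold change of 0.58 (limma adjusted p = 0.202). Tsc22d3 and Fkbp5, also of this list, were picked after their values were seen and were not called. Their control and EtOH means were 25.4 ± 4.95 and 22.6 ± 2.15 RPKM for Tsc22d3 and 3.96 ± 1.19 and 4.14 ± 0.709 RPKM for Fkbp5 (n = 6 each, SD, rows summed). A part of glucocorticoids in these results was not tested.

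Of 8 tested cAMP and fasting genes, 2 were called in main rows and 3 with rows summed. Beside these stand 2.42% of all rows and 6.40% of all genes, or 7.76% and 12.8% with the filter at a mean RPKM of 1. Pck1, the cytosolic PEP carboxykinase of gluconeogenesis, ranged from 211 to 341 RPKM in the controls and from 637 to 1148 RPKM in the EtOH livers without overlap (log2 fold change 1.62 with a standard error of 0.16 and a limma adjusted p of 0.000506). Igfbp1, an insulin-repressed binding protein of IGF, went from 25.4 ± 10.4 to 53.7 ± 17.8 RPKM (n = 6 each, SD, log2 fold change 1.25, adjusted p = 0.0236 from limma), a call lost without EtOH 2 or EtOH 3 (adjusted p up to 0.0565). Cpt1a, which takes fatty acids into mitochondrial oxidation, was called with rows summed (log2 fold change 0.96, adjusted p = 0.045 from limma) and had an adjusted p of 0.0887 in its main row. The median of this list was 0.45.

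**Figure D5:**
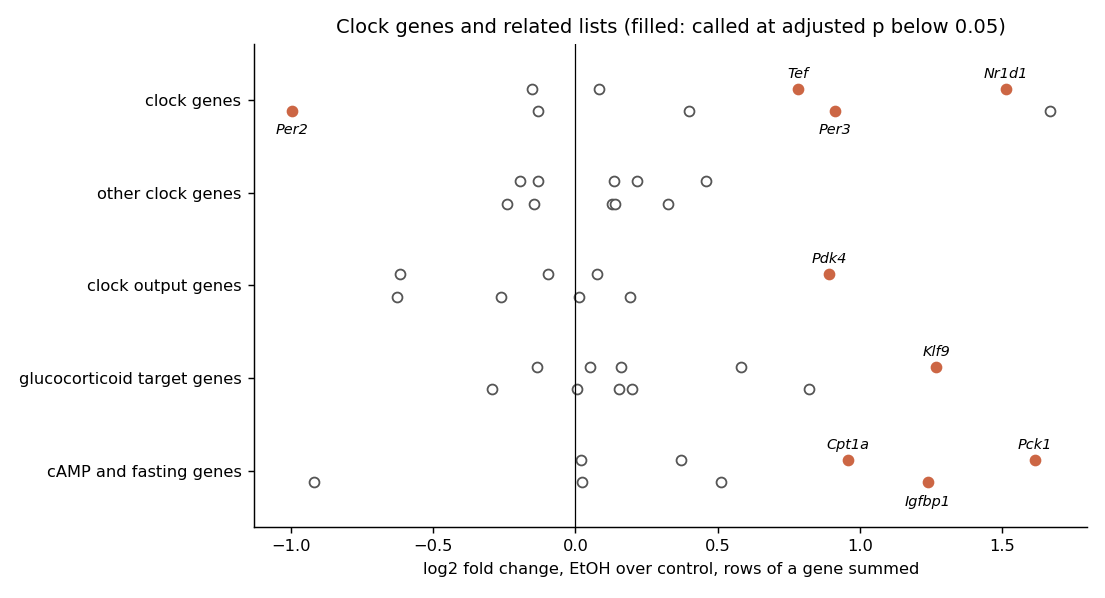
Log2 fold change of EtOH over control with rows of a gene summed, for the clock genes and 4 related lists, with 1 point per gene, filled and named where called at an adjusted p below 0.05. Called are 4 of 9 clock genes, 0 of 10 other clock genes, 1 of 8 clock outputs, 1 of 10 glucocorticoid targets and 3 of 8 cAMP and fasting genes, beside 6.40% of all genes. With only genes at a mean RPKM of 1 or more fitted, 12.8% of genes were called.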

How the data were processed

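Poly(A) RNA of 12 livers, 1 library per animal, was sequenced in 101-nucleotide paired-end reads, and all libraries were pooled in a single lane. RPKM values per transcript and liver were made by the authors in CLCbio Genomics Workbench and deposited in 1 table. It also holds the results of their own comparison for each transcript (a fold change, a statistic, its p and the FDR), which were not used. The sources used here do not name the genome build.

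Of 34391 rows, 12673 were at 0 in all livers and 21718 were tested. RPKM plus 0.5 was log2 transformed, quantile normalized and compared with limma 3.58.1 (mean-variance trend, R 4.3.3) between 6 EtOH and 6 control livers, with Benjamini-Hochberg adjustment over all rows. The scale understates fold changes of low genes. The values of all 21718 rows stood in ratios of whole reads within 0.01 of a read, so reads were recovered and also tested with limma voom, which called 524 rows. Depth and marker sums were compared by exact permutation, two-sided, over every regrouping of the animals (smallest p 0.00216). Python 3.11.15 with scipy 1.17.1, pandas 2.3.3 and numpy 2.4.6 served for other steps. The fit was tested on simulated data.

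Alternatives were other pseudocounts, normalizations, scales and filters, a fit with no trend, a block for the animal number, leaving out each liver, and, chosen after the values were seen, rows of a gene summed and voom. The genes and lists were chosen with earlier results of these data known. Named are all clock genes, every called gene of a related list or else the one with the smallest p, and the 3 rows most and least correlated with Arntl and with Dbp. Clock, Cry2, Tsc22d3, Fkbp5 and Angptl4 were added after their values were seen. Ciart and Noct were matched under older symbols. A result that the rule for named genes would give is not reported here.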

Additional observations from a re-analysis of the deposited data

Results flagged for a closer look

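Of 32 groups of 6 livers that were checked, 8 had a liver whose gap to its neighbour was large against the range of its group. For independent groups with normal values chance gives about 1 in 20. These groups share livers and genes (main rows, summed rows and scores made from them), so their count cannot be compared with that rate. EtOH 6 was such a liver for Dbp in its main row (26.1 RPKM), for Tef in its main row (13.5 RPKM) and for Per2 (1.96 RPKM), each time as the highest EtOH liver. Control 2 was one for Dbp in its main row (6.33 RPKM) and with rows summed (8.23 RPKM), as the highest control, and for the difference between activators and opposing genes with rows summed (0.187 on the log2 scale), as the lowest control. EtOH 1 was the highest EtOH liver for Cry1 (3.84 RPKM). Control 5 was the lowest control for the main row of Per3, which was listed at 0 there while its other row held all 5 recovered reads. EtOH 6 is the animal that was 39 weeks old, and the part of age in its values was not tested.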

How the results depend on the processing

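Over all rows, calls went from 526 to 322 on square-root values with an unmoderated test, to 860 with a minimum mean RPKM of 1 and to 977 with rows of a gene summed, and without any 1 liver they ranged from 212 (without EtOH 2) to 656 (without Control 6). They were also over 1.5 times fewer without Control 2 (275), Control 4 (285), EtOH 3 (252), EtOH 4 (295) and EtOH 5 (298). In main rows, 2 clock genes were called higher and 1 lower. The unmoderated test, of the kind the paper describes, left 0 higher and 0 lower in main rows. With rows summed, that test called 2 higher and 1 lower. A pseudocount of 1, median scaling or voom on recovered reads left 0 lower in main rows. Without any 1 liver the main rows gave 0 to 2 calls higher and 0 to 1 lower. With rows summed, 4 were called higher under median scaling, with a minimum mean RPKM of 1, and without Control 2 or EtOH 3, the added gene being Dbp, and 2 to 4 higher and 1 lower without any 1 liver.

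Reversed signs were found for Arntl and Npas2, which were called under no setting. Summing the rows turned the log2 fold change of Arntl to -0.13 (also with no trend or with the filter at an RPKM of 1). It was -0.14 with a pseudocount of 0.1, -0.12 with 1, -0.25 without normalization and -0.16 with median scaling, and -0.39 to 0.43 without any 1 liver over both units. On square-root values the difference between the groups was -0.14 in both tests, which is in square-root RPKM and not a log2 fold change. Npas2 was at -0.011 without normalization in both units, and at -0.013 to 0.15 without any 1 liver. The difference between activators and opposing genes stayed negative in all 30 alternatives, at -0.29 in main rows without Dbp and at -1.19 with rows summed and Per2 left out. Clock outputs had 0 calls instead of 1 without normalization, with median scaling, with the unmoderated test, with no trend and with voom, and 0 or 1 without any 1 liver. Calls among cAMP and fasting genes were 1 with the unmoderated test and 1 to 3 without any 1 liver, and among glucocorticoid targets 1 to 2. Summing rows moved the relations that passed from 0 to 4. The causes were not tested.

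Over all rows with a mean RPKM of 1 or more, animals of the same number in both groups did not deviate together (correlations of -0.067 to 0.032). The labels do not say that the numbers pair animals, and these correlations cannot exclude a pairing that touches few genes. With the animal number as a block, 113 rows were called, and 0 clock genes higher and 0 lower in main rows. With rows summed, the block left 450 genes called, among them 2 clock genes higher, Nr1d1 and Per3 (limma adjusted p = 0.0192 and 0.0485), and 0 lower. The calls of Tef (0.0763) and Per2 (0.0808) were lost, and Arntl was at -0.13. Clock outputs then had 0 calls and cAMP and fasting genes 1. Depth limits Per3 and Dbp most, with 5 to 11 and 5 to 43 recovered reads per control liver.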
